A study of Mus musculus with 4 samples.

Results

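The genes described here encode scaffolds and regulators of the postsynaptic density, the protein web beneath the receptors of glutamatergic synapses. A list of 35 genes was taken by symbol from the deposited table, and all 35 of them were found among its 55487 genes. RNA was sequenced from nuclei sorted by fluorescence into excitatory neurons (2 libraries) and inhibitory neurons (2 libraries). The nuclei came from brains of adult wild-type mice with the olfactory bulbs left out, and all 4 libraries carry the label of batch 1. The sources used here give no strain, sex, sort marker or number of animals per library. P-values therefore measure only the spread between these libraries, which may be technical.

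At the postsynaptic density, DLG proteins lie closest to the membrane, where they hold receptors and channels through PDZ domains. SAPAP proteins bind the DLG proteins from below and link them to SHANK proteins, which in turn are tied together by Homer proteins. Around this ladder sit adaptors that anchor kinases, phosphatases and actin, and regulators of the small GTPases that shape the spine and move receptors. Excitatory projection neurons carry most of their glutamatergic synapses on spines, while many interneurons receive theirs on the dendritic shaft and lack spines. The inhibitory libraries here are not shown to hold interneurons alone. Summed markers of striatal projection neurons, thalamic neurons, Purkinje cells and cerebellar granule cells were also higher in them, as given below. Nuclear RNA reports on transcription and RNA retained in the nucleus, not on the amount of protein at a synapse.

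Levels are TPM, transcript abundances that the authors corrected for length and scaled to a common total, so they can be set beside each other between genes. TPM keeps no depth, and the depth of each library is unknown. Log2 fold changes are excitatory over inhibitory, as differences of mean log2(TPM + 1) ± SE. On this scale the change of a gene with low values comes out smaller than it is. Means are given ± SD over n = 2 libraries. A gene is called higher in a group when its p from limma, adjusted by the Benjamini-Hochberg method over 26055 genes, is under 0.05. All 35 members passed the filter on low values, and in each of them every library was at or above 10.7 TPM.

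The sort separated the groups by their defining markers, though not fully. Slc17a7, the vesicular glutamate transporter of the forebrain, was at 365 and 367 TPM in excitatory and at 60.2 and 52.2 TPM in inhibitory libraries. Gad1, which makes GABA, was at 45.0 and 38.1 TPM against 226 and 207 TPM. Of 11 excitatory markers, 9 were called higher in excitatory nuclei and 1, Slc17a6, in inhibitory nuclei, while Slc17a8 was not called. Slc17a6, another vesicular glutamate transporter gene, was at 22.4 and 20.3 against 88.0 and 78.4 TPM (adjusted p = 0.00176). Of 11 inhibitory markers, 10 passed the filter on low values, and all 10 were called higher in inhibitory nuclei. Summed striatal (12 genes), thalamic (8), Purkinje (7) and granule cell (7) markers were also higher in both inhibitory libraries. These sums ranged from 394 to 399.8 against 1572 to 1588 TPM for striatal and from 113 to 137 against 339 to 408 TPM for thalamic markers. They ranged from 316 to 329 against 565 to 623 TPM for Purkinje and from 157 to 162 against 273 to 304 TPM for granule cell markers. Slc17a6 stands on both the excitatory and the thalamic list, so it adds to the thalamic sum. The group names are those of the sample titles and do not give the transmitter of every nucleus. Sums of 10 astrocyte (124 to 161 against 129 to 161 TPM) and 10 oligodendrocyte markers (381 to 460.2 against 291 to 408 TPM) overlapped between groups. Those of 10 microglial markers did not (72.1 to 77.6 against 82.0 to 102 TPM), and no glial marker was called. No marker list had a gene at 0 in every library. The part of these mixtures in the differences below was not tested, and in bulk libraries fewer cells of a type and less RNA per cell cannot be told apart.

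More of the postsynaptic density genes were called higher in excitatory than in inhibitory nuclei, most were not called, and the member farthest from 0, Homer3, was higher in inhibitory nuclei. Of the 35 members, 10 were called higher in excitatory nuclei: Dlg1, Dlgap1, Baiap2, Cnksr2, Synpo, Nsmf, Sipa1l1, Iqsec2, Kalrn and Arhgap32. A further 3 were called higher in inhibitory nuclei, namely Homer3, Grip1 and Grip2, and 22 were not called. Among all genes tested, 12.0% were called in either direction, 5.43% toward excitatory and 6.62% toward inhibitory nuclei, against 37.1%, 28.6% and 8.57% of the members. The median log2 fold change was 0.36 for the members and -0.07 for all genes tested. Of the genes with a mean level at least that of the lowest member, 15.7% were called, 8.52% of them toward excitatory nuclei as a share of all such genes. Libraries of the groups did not overlap for 28 members, against 56.2% of all genes tested. Excitatory libraries were above in 22 members and inhibitory ones in 6, against 23.0% and 33.3% of all genes.

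**Figure D1:**
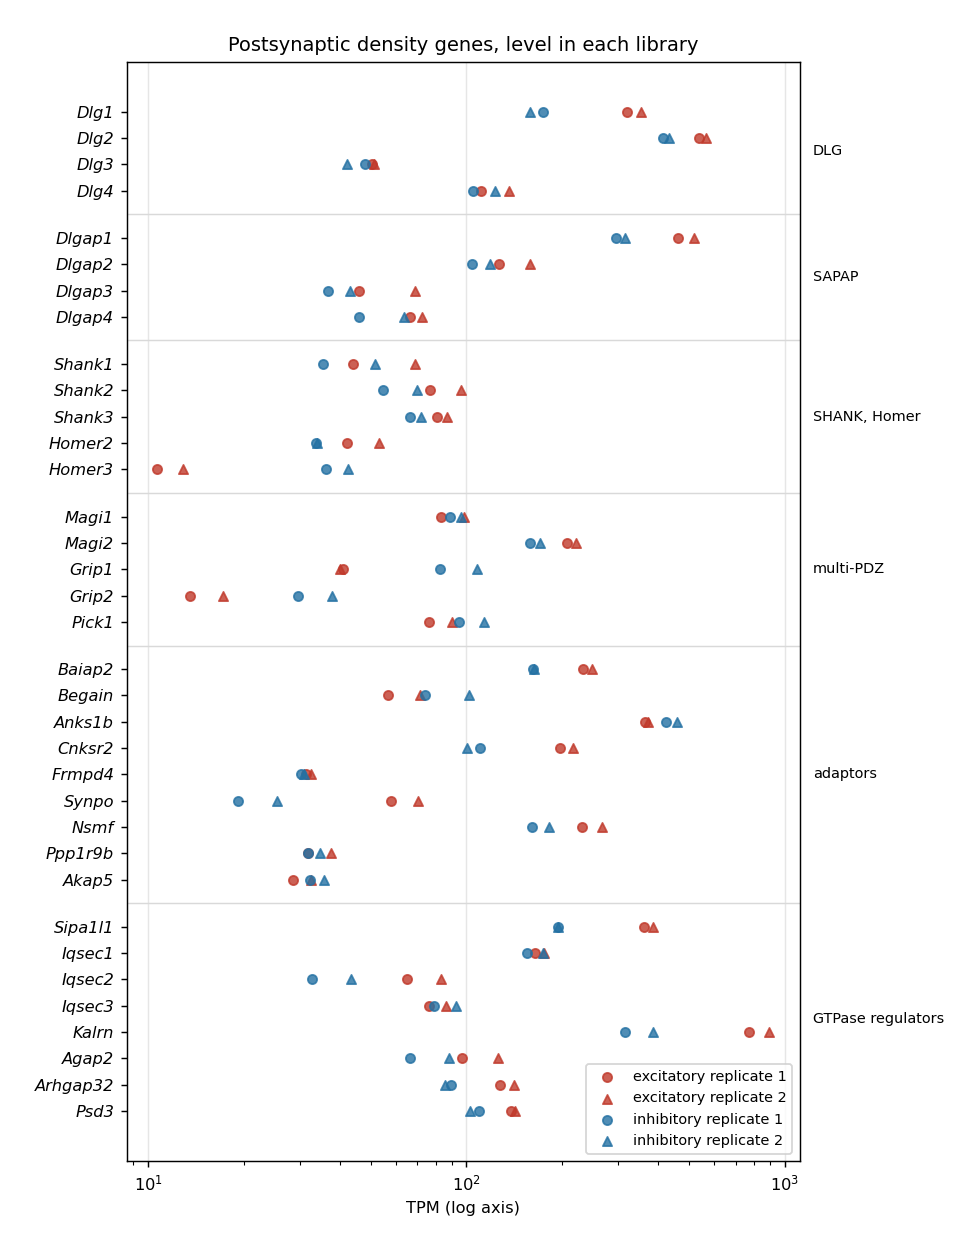
Level of each of the 35 genes in each library, in TPM on a log axis, with genes grouped by role from top to bottom and 1 point per library. Kalrn reached 891 TPM in an excitatory library, and Homer3 is the member with the widest gap in favour of inhibitory libraries.

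Summed over the members, RNA of these genes took 5421 and 6083 TPM in the excitatory libraries and 3987 and 4386 TPM in the inhibitory ones. The groups did not overlap, and the ratio of mean sums was 1.37. Kalrn, Dlg2, Anks1b, Dlgap1 and Sipa1l1, the 5 members highest on average, made up 44.9% to 45.9% of this sum in excitatory and 40.7% to 41.2% in inhibitory libraries. By role, the summed level stood 1.73-fold higher in excitatory nuclei for GTPase regulators, 1.49-fold for SAPAP genes and 1.42-fold for DLG genes. Single members carried much of these gaps: without Kalrn the ratio was 1.44 for GTPase regulators, without Dlgap1 it was 1.31 for SAPAP genes, and without Dlg1 it was 1.25 for DLG genes. For adaptors the sum was 1.19-fold higher, again with no overlap. The groups overlapped for SHANK and Homer genes, with a ratio of 1.15, and for the multi-PDZ scaffolds, with a ratio of 0.906. Without Homer3 the mean sums of SHANK and Homer genes were 274.8 against 209.0 TPM, a ratio of 1.31. Without Grip1 those of the multi-PDZ scaffolds were 402.8 against 394.4 TPM. The summed Shank1 to Shank3 level did not overlap, at 202.0 and 252.3 against 156.5 and 193.8 TPM. With Homer1, which is outside the list, the Homer1 to Homer3 sum was 464.9 and 526.7 against 262.3 and 255.7 TPM.

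In the limma fit, 2 residual degrees of freedom stand behind each call. With any 1 library left out, whether excitatory replicate 1, excitatory replicate 2, inhibitory replicate 1 or inhibitory replicate 2, limma called 0 members and 0 genes in all, while between 5311 and 5812 genes had an unadjusted p below 0.05. The 13 called members all kept such a p and their direction in each of these fits, with adjusted p between 0.0614 and 0.243, though the calls had been made with the same libraries. For a single value, the smallest p that 2 libraries against 2 allow in an exact permutation test (two-sided) is 0.333. The libraries of a group also differed from each other in a common direction: replicate 2 was above replicate 1 for 34 of 35 members in excitatory and for 29 of 35 in inhibitory nuclei. The median difference was 0.19 and 0.17 on the log2 scale. Summed glial markers were lower in replicate 2 of both groups, from 161 to 124 and from 161 to 129 TPM for astrocytes and from 460.2 to 381 and from 408 to 291 TPM for oligodendrocytes (excitatory, then inhibitory). Those of microglia went from 77.6 to 72.1 and from 102 to 82.0 TPM. The part of these shifts in the results was not tested.

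**Figure D2:**
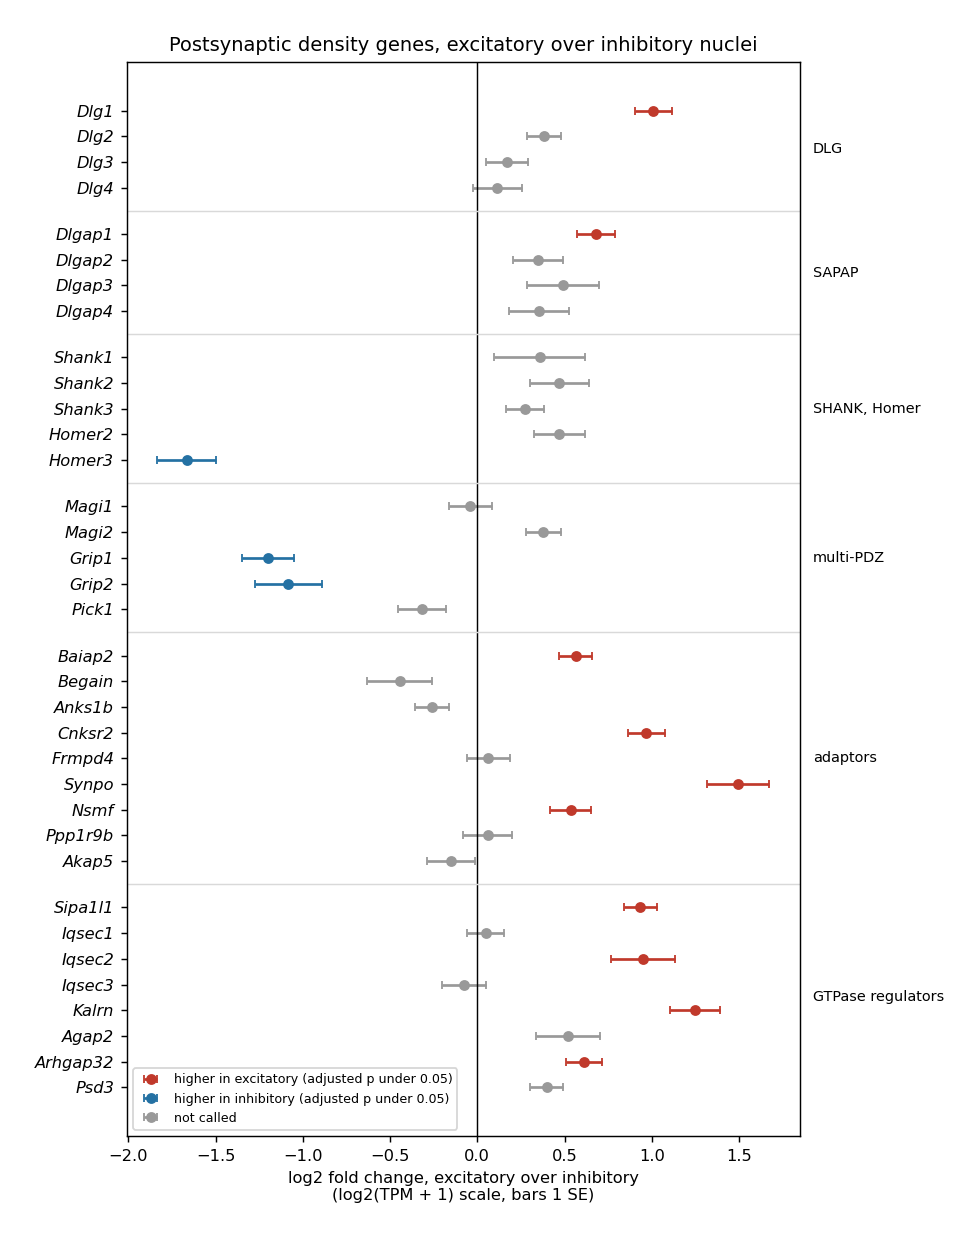
Log2 fold change of each member, excitatory over inhibitory, as fitted to log2(TPM + 1), with bars of 1 SE from limma and colours by call. The 10 red genes lie between 0.53 and 1.49, the 3 blue genes between -1.66 and -1.08, and the grey genes were not called.

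The DLG genes encode the membrane-associated guanylate kinases SAP97, PSD-93, SAP102 and PSD-95. Of the 4 genes, 1 was called, against 12.0% of all genes tested. The called gene was Dlg1 (SAP97), which is also known for carrying AMPA receptors through the secretory pathway. Dlg1 was at 319.9 and 353 TPM in excitatory and at 175 and 159 TPM in inhibitory libraries. This gave a log2 fold change of 1.01 ± 0.11 (adjusted p = 0.00473), with both excitatory libraries well above both inhibitory ones. Dlg2 (PSD-93) was the most abundant of the family, at 537 and 564 TPM against 413 and 432 TPM. Its libraries also did not overlap, but it missed the threshold at 0.38 ± 0.10 (adjusted p = 0.0611) and passed it with median ratio scaling (adjusted p = 0.0183). Without the filter on low values and without a trend in the variance prior, the adjusted p of Dlg2 was 0.122 and 0.198. Dlg4, which encodes PSD-95, the best known scaffold of the structure, was at 111 and 136 against 105 and 123 TPM. Those libraries overlapped, and the log2 fold change of 0.11 ± 0.14 was within its error. Dlg3, the X-linked SAP102 gene, was at 50.4 and 51.3 against 47.9 and 42.3 TPM and was not called.

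Because a share within a library does not depend on scaling between libraries, the make-up of each family was also compared. Dlg1 held 31.4% and 31.9% of the summed Dlg1 to Dlg4 level in excitatory libraries and 23.6% and 21.0% in inhibitory ones. The share of Dlg2 was 52.7% and 51.1% against 55.8% and 57.1%, and that of Dlg4 10.9% and 12.3% against 14.2% and 16.3%. None of these shares overlapped between the groups (exact permutation p = 0.333, the smallest possible). The order within the family was the same in all 4 libraries, with Dlg2 highest, then Dlg1, Dlg4 and Dlg3.

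SAPAP proteins bind the guanylate kinase domain of DLG proteins on one side and SHANK on the other. All 4 SAPAP genes had both excitatory libraries above both inhibitory ones, as did 23.0% of all genes tested. Of the 4, 1 was called, against 12.0% of all genes tested. That gene, Dlgap1, was at 461 and 519 TPM in excitatory and at 294 and 315 TPM in inhibitory libraries, a log2 fold change of 0.68 ± 0.11 (adjusted p = 0.0153). The call was lost without the filter on low values (adjusted p = 0.0552) and without a trend in the variance prior (adjusted p = 0.0749). Dlgap2 followed at 126 and 159 against 104 and 118 TPM, with a log2 fold change of 0.35 ± 0.14 (adjusted p = 0.177). Dlgap3, a gene known for its high level in striatum, was at 46.0 and 69.2 against 36.8 and 43.2 TPM, and Dlgap4 stood at 69.4 ± 4.27 against 54.7 ± 12.4 TPM. Dlgap1 held 65.9% and 63.3% of the family's level in excitatory and 61.2% and 58.4% in inhibitory libraries, a difference of 4.83 percentage points, against 9.39 for Dlg1 in its family.

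SHANK proteins are the deep scaffolds of the density, and SHANK3 is the member most often tied to autism. None of the 3 SHANK genes was called, against 12.0% of all genes tested. Shank3 was at 80.8 and 87.1 against 66.4 and 72.2 TPM (0.27 ± 0.11, adjusted p = 0.166). Shank2 was at 77.0 and 96.1 against 54.7 and 69.8 TPM (0.47 ± 0.17, adjusted p = 0.131). For both, excitatory libraries were above inhibitory ones, while those of Shank1 (56.6 ± 17.7 against 43.6 ± 11.5 TPM) overlapped. Shank1 was the lowest of the 3 in each library, with 21.8% to 27.4% of the family's summed level, against 34.5% to 42.4% for Shank2 and Shank3.

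Homer proteins join SHANK to group 1 metabotropic glutamate receptors and to the calcium store, and the family gave the widest contrast of the list. Homer3 was at 10.7 and 12.8 TPM in excitatory and at 36.3 and 42.6 TPM in inhibitory libraries. It thus stood 3.35-fold higher in inhibitory nuclei, with a log2 fold change of -1.66 ± 0.17 (adjusted p = 0.00443), the member farthest from 0. Homer2 was at 42.1 and 53.2 against 33.8 and 34.0 TPM and was not called (0.47 ± 0.15, adjusted p = 0.0972), though it was with median ratio scaling (adjusted p = 0.0431). Without the filter and without a variance trend, the adjusted p of Homer2 was 0.165 and 0.199. Homer1, a related gene outside the list, was called higher in excitatory nuclei (436 ± 34.4 against 186 ± 9.26 TPM, 1.23 ± 0.11, adjusted p = 0.00315). The ratio of Homer3 to Homer2 was 0.254 and 0.241 in excitatory libraries and 1.08 and 1.25 in inhibitory ones. Homer3 made up 2.30% and 2.44% of the family's level in excitatory and 13.8% and 16.7% in inhibitory libraries.

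Homer3 protein is known from Purkinje cells. Beside its difference, 6 of 7 Purkinje markers were called higher in inhibitory nuclei, Pcp2 at 15.6 and 13.2 against 53.3 and 70.1 TPM among them, and the part of Purkinje nuclei in the Homer3 value was not tested. Homer3 shares 874 of its 3440 exon bases, or 25.4%, with Ddx49, an RNA helicase gene on the opposite strand. No source used here says if reads were assigned by strand, so reads of the shared bases may have gone to either gene. Ddx49 itself had a mean of 29.0 ± 0.894 TPM in excitatory and 29.9 ± 0.484 TPM in inhibitory libraries and was not called (adjusted p = 0.880).

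**Figure D3:**
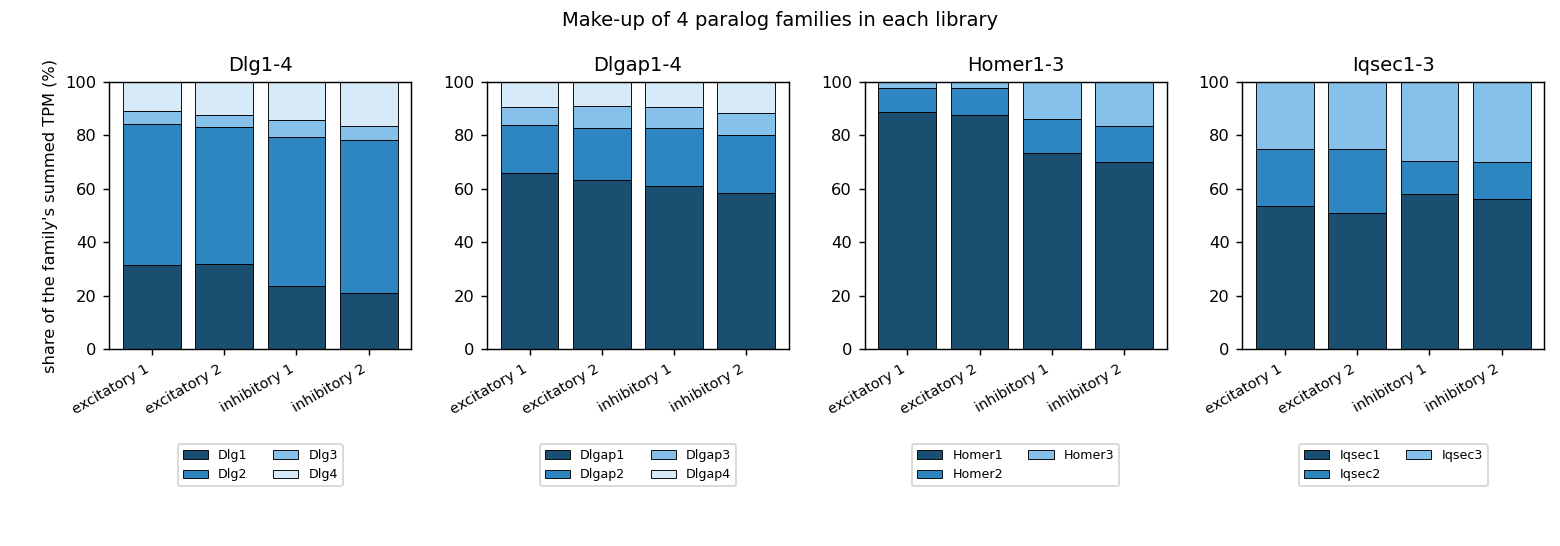
Share of each paralog family's summed TPM held by each member, in percent, with 1 stacked bar per library for Dlg1 to Dlg4, Dlgap1 to Dlgap4, Homer1 to Homer3 and Iqsec1 to Iqsec3. Homer3 takes 2.30% and 2.44% of its family in the excitatory and 13.8% and 16.7% in the inhibitory libraries, and Iqsec2 takes a larger part of its family in both excitatory libraries.

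GRIP1 and GRIP2 are scaffolds with several PDZ domains that bind the tail of the AMPA receptor subunit GluA2, and both of their genes were higher in inhibitory nuclei. Grip1 was at 41.0 and 40.1 TPM in excitatory and at 82.6 and 108 TPM in inhibitory libraries. This is 2.35-fold higher in inhibitory nuclei, with a log2 fold change of -1.20 ± 0.15 (adjusted p = 0.00701). Grip2 was at 13.5 and 17.2 against 29.6 and 37.8 TPM (-1.08 ± 0.19, adjusted p = 0.0215), a call lost without the filter (adjusted p = 0.0653) and without a variance trend (adjusted p = 0.0545). Within the pair the shares overlapped, with Grip1 holding 70.0% to 75.2% of their sum in excitatory and 73.6% to 74.0% in inhibitory libraries.

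Pick1 encodes the other PDZ partner of GluA2, which takes part in receptor internalisation. It was at 76.3 and 90.3 against 94.6 and 113 TPM, with inhibitory libraries above, and was not called (-0.32 ± 0.14, adjusted p = 0.206). Pick1 shares 18.6% of its exon bases with Gm49486, a gene on the same strand listed between 0 and 1.21 TPM. Of the MAGI scaffolds, Magi2, found at both excitatory and inhibitory synapses, was at 206 and 221 against 158 and 170 TPM. Its libraries did not overlap (0.38 ± 0.10, adjusted p = 0.0611), and it was called with median ratio scaling (adjusted p = 0.0197) and with quantile normalization (adjusted p = 0.0426). Without the filter and without a variance trend, the adjusted p of Magi2 was 0.110 and 0.210. Magi1 stood at 90.5 ± 10.6 against 92.7 ± 5.30 TPM, and its sign changed with median ratio scaling.

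Of 9 adaptors and anchors, 4 (44.4%) were called, against 12.0% of all genes tested, and all 4 were higher in excitatory nuclei. Synpo encodes synaptopodin, the actin-binding protein of the spine apparatus, a stack of endoplasmic reticulum found in spines of forebrain projection neurons. It was at 58.1 and 70.5 TPM in excitatory and at 19.2 and 25.4 TPM in inhibitory libraries, 2.88-fold higher in excitatory nuclei (1.49 ± 0.18, adjusted p = 0.00644). No other member had as large a log2 fold change toward excitatory nuclei. Its paralogue Synpo2, from the related genes, went the other way, at 1.15 ± 0.299 against 11.6 ± 0.438 TPM (-2.55 ± 0.27, adjusted p = 0.00465).

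Cnksr2 (CNK2), a scaffold of Ras to MAP kinase signalling encoded on the X chromosome, was at 197 and 215 TPM in excitatory and at 110.0 and 100.1 TPM in inhibitory libraries. The groups were far apart, with a log2 fold change of 0.97 ± 0.11 (adjusted p = 0.00506). Baiap2 (IRSp53), which couples Rac signalling and membrane curvature to DLG and SHANK proteins, was at 233 and 247 against 161 and 163 TPM (0.56 ± 0.09, adjusted p = 0.0171). Nsmf (Jacob), a messenger that carries NMDA receptor signals to the nucleus, was at 231 and 266 against 161 and 181 TPM (0.53 ± 0.12, adjusted p = 0.0395). The Baiap2 call was lost without a variance trend (adjusted p = 0.0946). That of Nsmf was lost there (adjusted p = 0.142) and without the filter (adjusted p = 0.0970).

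The other 5 adaptors were not called. Anks1b (AIDA-1), a partner of PSD-95 that can move to the nucleus, was the most abundant adaptor and leaned toward inhibitory nuclei, at 362 and 373 against 424 and 457 TPM. Its libraries did not overlap (-0.26 ± 0.10, adjusted p = 0.155), and quantile normalization called it (adjusted p = 0.0359). With median ratio scaling, without the filter and without a variance trend, the adjusted p of Anks1b was 0.197, 0.228 and 0.355. Begain, which binds the guanylate kinase domain of PSD-95, also had its inhibitory libraries above, at 63.9 ± 10.4 against 87.8 ± 19.3 TPM. Frmpd4, which links PSD-95 to Homer and metabotropic receptors, stood at 32.0 ± 0.735 against 30.6 ± 0.610 TPM. Libraries of the groups overlapped for the spinophilin gene Ppp1r9b (34.7 ± 4.18 against 33.2 ± 1.99 TPM), whose product brings protein phosphatase 1 to spines. They overlapped too for Akap5 (30.5 ± 2.88 against 33.9 ± 2.33 TPM), which anchors protein kinase A and calcineurin.

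Among the 8 regulators of small GTPases, 4 (50%) were called, against 12.0% of all genes tested, and all 4 were higher in excitatory nuclei. Kalrn encodes kalirin, an activator of Rac known for spine growth, and was the most abundant member on average over the 4 libraries. It was at 770.4 and 891 TPM in excitatory and at 315 and 385 TPM in inhibitory libraries, a log2 fold change of 1.25 ± 0.14 (adjusted p = 0.00559). In inhibitory nuclei the means of Anks1b (441 TPM) and Dlg2 (422 TPM) were above that of Kalrn (350 TPM). Set against Trio, its close paralogue among the related genes (338 ± 33.6 against 320.0 ± 36.1 TPM, not called), Kalrn had a ratio of 2.46 and 2.47 in excitatory libraries. In inhibitory libraries that ratio was 1.07 and 1.11.

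Sipa1l1 (SPAR), which turns off Rap and reshapes spine actin, was at 360.3 and 384 TPM against 194 TPM in both inhibitory libraries. Its log2 fold change of 0.93 ± 0.09 had the smallest adjusted p of the list (0.00437). Arhgap32, a GTPase-activating protein, was at 127 and 141 against 89.2 and 85.4 TPM (0.61 ± 0.10, adjusted p = 0.0177), a call lost without a variance trend (adjusted p = 0.0870). Psd3, an exchange factor for Arf6, stood just outside the threshold at 140 ± 2.98 against 106 ± 4.81 TPM (0.40 ± 0.10, adjusted p = 0.0503). It was called when the filter was raised to 5 TPM (adjusted p = 0.0413), with median ratio scaling (0.0259) and with quantile normalization (0.0405). Psd3 was not called without the filter, without a variance trend or with a pseudocount of 0.1. Agap2 (PIKE), an Arf regulator that also binds Homer, stood at 111 ± 20.2 against 77.4 ± 15.1 TPM and was not called, with both excitatory libraries above.

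The 3 IQSEC genes encode exchange factors for Arf proteins that act at different synapses: IQSEC1 and IQSEC2 with PSD-95, and IQSEC3 with gephyrin at inhibitory synapses. Of the 3, only Iqsec2, an X-linked gene of intellectual disability, was called, against 12.0% of all genes tested. It was at 65.3 and 83.1 TPM in excitatory and at 32.6 and 43.2 TPM in inhibitory libraries (0.95 ± 0.18, adjusted p = 0.0265). The call was lost without the filter (adjusted p = 0.0820) and without a variance trend (adjusted p = 0.0798). Iqsec1 (170 ± 7.37 against 164 ± 14.0 TPM) and Iqsec3 (81.3 ± 6.83 against 85.8 ± 9.82 TPM) had overlapping libraries, and the sign of Iqsec3 changed with median ratio scaling. Iqsec2 took 21.3% and 24.1% of the family's level in excitatory libraries and 12.3% and 13.9% in inhibitory ones.

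The study is concerned with EGR1, a zinc finger factor induced by neuronal activity, so its binding motif was looked for in RefSeq promoter windows (GRCm38.p6) of 250 bases before to 50 after an annotated start. The motif was GCGNGGGCG on either strand, and 29 of the 35 members had at least 1 window. It was found in 10 of these 29 genes (34.5%), against 11.2% of the genes tested that have a window. A gene counts if any of its windows has a match, and the number of windows differed. The members had 60 windows for 29 genes, and all genes tested had 16657 for 13037. Per window, the figures were 10 of 60 (16.7%) and 9.43%. Matches were in windows of 2 of 8 members called higher in excitatory nuclei (Baiap2 and Iqsec2), 1 of 3 called higher in inhibitory nuclei (Homer3) and 7 of 18 not called. Over all genes tested with a window, the motif was in 15.8% of those called toward excitatory and 13.3% of those called toward inhibitory nuclei. The IQSEC stretches are shown because these paralogs differ both in the motif and in their call. Each is the 210 bases up to the base before the start in gene orientation, overlaps no annotated exon, and has motif matches in capitals.
Iqsec1 (chr6:90810124-90810333, minus strand): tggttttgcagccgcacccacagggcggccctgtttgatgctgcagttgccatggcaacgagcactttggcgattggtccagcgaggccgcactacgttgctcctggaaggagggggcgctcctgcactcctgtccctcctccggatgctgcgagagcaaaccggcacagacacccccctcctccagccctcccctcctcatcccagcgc
Iqsec2 (chrX:152144058-152144267, plus strand): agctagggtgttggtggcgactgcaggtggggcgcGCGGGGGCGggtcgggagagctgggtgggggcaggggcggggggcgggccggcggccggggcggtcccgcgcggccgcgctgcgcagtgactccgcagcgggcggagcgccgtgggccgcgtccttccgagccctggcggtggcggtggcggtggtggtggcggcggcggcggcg
Iqsec3 (chr6:121473679-121473888, minus strand): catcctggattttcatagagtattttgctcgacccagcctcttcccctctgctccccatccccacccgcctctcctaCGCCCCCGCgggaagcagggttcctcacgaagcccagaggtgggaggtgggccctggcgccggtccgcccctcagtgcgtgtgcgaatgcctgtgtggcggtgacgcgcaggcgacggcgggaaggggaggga
Iqsec2 and Iqsec3 thus each hold 1 match, on opposite strands relative to the gene, while Iqsec2 was called and Iqsec3 was not. Iqsec1 has no match in this stretch, nor in its other window. The other window of Iqsec2 has no match either. A match is a description of the letters and no evidence of binding.

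By GENCODE M21 on mm10, the members lie on 15 chromosomes, with at most 4 on any of them, and tend to be long genes. Among the called members, Dlg1 lies on chromosome 16 (31663443 to 31875129), Dlgap1 on 17 (69969073 to 70821413), Baiap2 on 11 (119942763 to 120006782) and Sipa1l1 on 12 (82169320 to 82451786). Arhgap32 lies on chromosome 9 (32116136 to 32268446), and Cnksr2 (157821436 to 158043294) and Iqsec2 (152144268 to 152225236) lie on X. Grip1 lies on chromosome 10 (119453830 to 120087261) and Grip2 on 6 (91761509 to 91827250). The median genomic length of the members was 107 kb, against 8.96 kb for all genes tested and 26.6 kb for genes at least as high as the lowest member. They span from Nsmf (8.53 kb, chromosome 2, 25054355 to 25062881) to Dlg2 (1973 kb, chromosome 7, 90476672 to 92449247). The most changed members were of mixed size: Kalrn spans 604 kb on chromosome 16 (33969073 to 34573532), Synpo 66.2 kb, and Homer3 11.5 kb on chromosome 8 (70282827 to 70294361). Exons of 11 members overlap those of another annotated gene, for 2 of them (Homer3 and Pick1) over at least 10% of exon bases.

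Other genes of the excitatory postsynapse were called in both directions. Of 63 such genes, 60 were tested and 23.3% of those called, against 12.0% of all genes. Toward excitatory nuclei there were 11 calls, 18.3% of the genes tested on this list, against 5.43% of all genes. Toward inhibitory nuclei there were 3, a smaller share than the 6.62% of all genes. The median log2 fold change of the list was 0.22. Toward excitatory and inhibitory nuclei, 21 and 3 were called with median ratio scaling, 5 and 3 without the filter, and 4 and 3 without a variance trend. The difference between directions was not tested. Besides Homer1, the calls with the smallest p toward excitatory nuclei were Camk2a, the kinase subunit of projection neurons (394 ± 53.7 against 139 ± 25.6 TPM), and Wasf1, the actin regulator WAVE1 (74.6 ± 3.65 against 39.3 ± 0.169 TPM). Nrgn, the calmodulin-binding neurogranin (120.4 ± 1.15 against 57.6 ± 8.92 TPM), and the actin adaptor gene Sorbs2 (785 ± 74.4 against 447 ± 19.0 TPM) followed. Besides Synpo2, those toward inhibitory nuclei were the Arf6 exchange factor gene Psd2 (12.4 ± 0.313 against 43.2 ± 9.67 TPM) and Actn2, an actin crosslinker (11.9 ± 0.976 against 31.7 ± 3.67 TPM). Psd2 and its relative on the list, Psd3, thus stood on different sides of 0.

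Scaffolds and partners of the inhibitory postsynapse showed no common direction. Of 15 genes, all tested, 2 were called toward excitatory and 2 toward inhibitory nuclei, with a median log2 fold change of -0.05. The share called was 26.7% in either direction, against 12.0% of all genes tested. By direction it was 13.3% each, against 5.43% toward excitatory and 6.62% toward inhibitory nuclei among all genes. Under quantile normalization and under median ratio scaling the split was 2 against 1. Gephyrin (Gphn), the scaffold under GABA-A and glycine receptors, was at 70.4 ± 2.54 against 95.8 ± 2.18 TPM (-0.44 ± 0.10, adjusted p = 0.0415). That call was lost without the filter, without a variance trend and with either other scaling. Insyn2b, a gene of low level (1.38 ± 0.212 against 6.89 ± 0.339 TPM), was called toward inhibitory nuclei and lost without the filter. The dystrophin gene Dmd (179 ± 22.4 against 126 ± 0.480 TPM) and the syntrophin gene Sntb2 (36.7 ± 2.03 against 23.3 ± 0.989 TPM) were called higher in excitatory nuclei. Both calls were lost without the filter and without a variance trend, and that of Dmd with a pseudocount of 0.1.

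**Figure D4:**
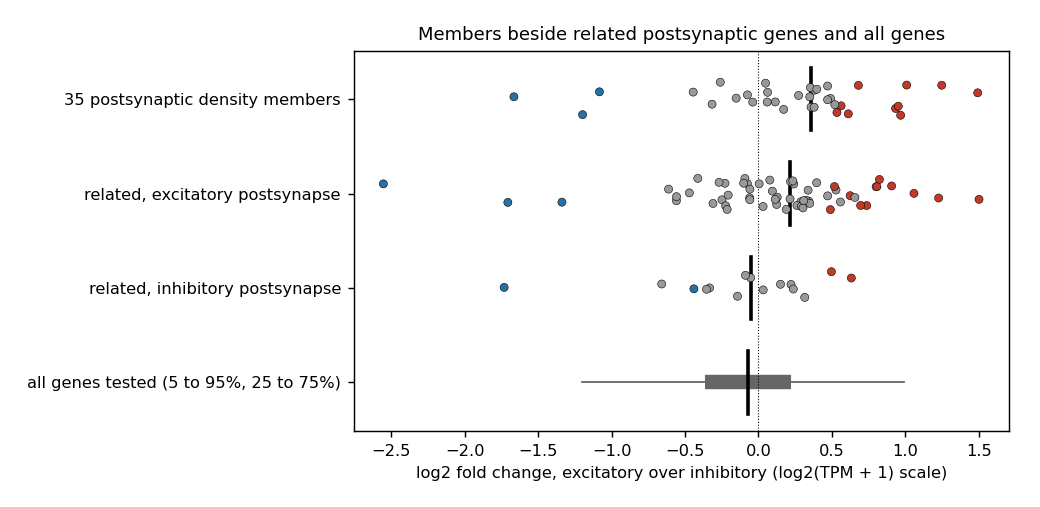
Log2 fold changes, excitatory over inhibitory, of the 35 members and of 60 and 15 related genes of the excitatory and inhibitory postsynapse, 1 point per gene (red called higher in excitatory, blue in inhibitory, grey not called), with vertical bars at the medians of 0.36, 0.22 and -0.05. The bottom row gives all 26055 genes tested, with a median of -0.07, a thick line from the 25th to the 75th and a thin line from the 5th to the 95th percentile.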

How the data were processed

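The authors deposited TPM values of 55487 genes, 1 column per library, each summing to between 999833 and 999891. The submitters' processing notes name StringTie 2.2.1, Bowtie2 2.3.5, HISAT2 2.2.1 and fastp 0.23.4, and the build mm10. The sources used here do not say what each tool did, which annotation was used or how strand was treated. Groups and replicate numbers came from titles and columns from descriptions. Replicate columns were not copies: 89 (excitatory) and 93 (inhibitory) of 26055 log2 values were identical. Genes reaching 1 TPM in 2 or more of the 4 libraries were fitted as log2(TPM + 1) by limma 3.58.1 in R 4.3.3 with a variance trend; the fit was tested on simulated data. Alternatives were another pseudocount, filters, scalings, no trend, a replicate block and leaving out each library. Positions came from GENCODE M21. Tables used pandas 2.3.3 and figures matplotlib 3.10.9 in Python 3.11.15.

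The members and lists were chosen with earlier results of these data known. The naming rule gave values in every library for called members and for the 2 most abundant members of each role, up to 5 called related genes per direction and list, and the first markers of a list. Other named members, the related gene Trio, overlapping genes and the ratios between paralogs were chosen after their values were seen.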

Additional observations from a re-analysis of the deposited data

How the results depend on the processing

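All 13 called members kept their direction under every alternative run. Of the uncalled members, Iqsec3 and Magi1 changed sign with median ratio scaling, and with a library left out so did Dlg4, Iqsec1 and Ppp1r9b. Without the filter, 666 genes were called higher in excitatory and 740 in inhibitory nuclei (1414 and 1725 with it). The calls of 9 of 13 members remained. Of the related excitatory postsynaptic genes 5 were called toward excitatory and 3 toward inhibitory nuclei, and of the inhibitory ones 0 and 0 (2 and 5 at an unadjusted p under 0.05). Without a variance trend 7 member calls remained, 5 toward excitatory nuclei, with 4 related excitatory postsynaptic genes toward excitatory, and 0 and 1 of the inhibitory ones (2 and 3 unadjusted). No uncalled member gained a call without the filter, without a variance trend or with a pseudocount of 0.1. Median ratio scaling moved the median log2 fold change of all genes tested from -0.0732 to -0.0043, toward excitatory nuclei. With this scaling 21 related excitatory postsynaptic genes were called toward excitatory and 1 inhibitory one toward inhibitory nuclei. Quantile normalization also called 1 inhibitory one toward inhibitory nuclei. With a pseudocount of 0.1, 1 related inhibitory postsynaptic gene was called toward excitatory nuclei. Leaving out any 1 library left between 0 and 0 calls for all genes, members and related lists in either direction by limma, with 5311 to 5812 genes at an unadjusted p under 0.05 and 1 residual degree of freedom; there the lone sample of a group is assumed to vary like the other group. The cause of these changes was not tested.

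The titles number the replicates of both groups 1 and 2, and nothing says that a number marks a shared animal or day. With a replicate block, 17 members were called higher in excitatory and 6 in inhibitory nuclei, and 20 and 5 of the related excitatory postsynaptic genes, while the counts over all 26055 genes went up to 1946 and 2382. The block added Agap2, Dlg2, Dlgap2, Dlgap3, Magi2, Psd3 and Shank2 toward excitatory and Anks1b, Begain and Pick1 toward inhibitory nuclei. Differences between replicates correlated between the groups at 0.0957 across all genes tested and at 0.560 across the 35 members, and replicate 2 was above replicate 1 in both groups for 28 members, against 37.4% of all genes. Leaving out each library, chosen as a check after seeing the data, kept the share differences between 8.10 and 10.7 percentage points for Dlg1, 3.41 and 6.25 for Dlgap1, -14.3 and -11.5 for Homer3, and 8.20 and 11.0 for Iqsec2. Depth is unknown from TPM, so no limit from counting could be set.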
